A study of Homo sapiens with 2 samples.

Results

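The BCL2 family and its partner proteins decide whether a stressed cell undergoes apoptosis, and 10 of their genes were read out here for contact with the RNA-binding protein RBM47. The genes were MCL1, BCL2, BCL2L1, BCL2L11, BAX, BMF, PMAIP1, XIAP, BIRC2 and MDM2. Every row of the deposited cluster table whose gene symbol was one of these names was taken, which gave 157 clusters out of 233546. These clusters belonged to 7 of the 10 genes, and BCL2, BAX and BMF had no deposited cluster. Matching by Entrez gene ID in place of the symbol gave the same 157 clusters and 7 genes. A cluster is a stretch of RNA where sequenced fragments, called tags, pile up.

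The cells were MDA231-BrM2a, a non-clonal derivative of the breast cancer line MDA-MB-231 that forms brain metastases. They carried a transgene for wild-type RBM47 with a Flag tag, switched on from a doxycycline-inducible promoter by 1 ng/ml doxycycline for 3 days, so the protein measured is the introduced and not the endogenous one. In HITS-CLIP, ultraviolet light links the protein to the RNA it touches, the tagged protein is pulled down and the bound fragments are sequenced. There was 1 group with 2 replicates. No library from untagged or uninduced cells was analysed here, so how much of the signal is unspecific is unknown. RNA levels were not measured in this assay, and a high tag count may come from an abundant transcript or from frequent contact, which cannot be told apart.

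In mitochondrial apoptosis, the antiapoptotic proteins MCL1, BCL2 and BCL-XL (from BCL2L1) hold back the effector BAX, which permeabilises the outer mitochondrial membrane. BH3-only proteins such as BIM (from BCL2L11), NOXA (from PMAIP1) and BMF bind the antiapoptotic proteins and release that block. Inhibitor of apoptosis proteins (IAPs) act further down the pathway: XIAP blocks caspases directly and BIRC2 (cIAP1) is a ubiquitin ligase of receptor signalling, while MDM2 is a ubiquitin ligase of the response to DNA damage. MCL1 and PMAIP1 are known for short-lived mRNAs, and XIAP and MDM2 for long 3'UTRs, the part of an mRNA that RNA-binding proteins often contact.

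Replicate 1 contributed 999047 tags and replicate 2 contributed 3489697 tags, 3.49 times as many. Levels are therefore given as normalised tags, scaled so that each replicate's column sums to 1000000. The table lists only clusters seen in both replicates with 5 or more tags, so a gene below these minimums has no row, and the absence of a row is not a measured 0. The 6 markers chosen for basal breast cancer lines, the class to which MDA-MB-231 belongs, each had clusters with between 656 and 8676 tags per gene, and none of the 6 luminal markers had a cluster.

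The member clusters held 1464 tags in replicate 1 and 5835 tags in replicate 2, which was 1569 ± 146 normalised tags (SD, n = 2). By the authors' total, which merges both replicates, they held 7248 tags. The median member cluster held 12 tags and was 91 nt long, beside 8 tags and 82 nt over all deposited clusters. Replicate 1 had a single tag in 39 of the 157 clusters and a median of 2 tags, against a median of 10 tags in replicate 2. Clusters with at least 100 tags numbered 9 of 157, or 5.73%, against 1.93% of all clusters and 2.20% of clusters with a gene. The 9 lay in MCL1, PMAIP1, XIAP and BIRC2.

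The study called binding strong at more than 100 tags per transcript, summed over clusters of at least 10 tags. By that rule 5 of the 7 genes passed, while BCL2L1 with 68 tags and BCL2L11 with 83 tags did not. Of all 7712 genes with a cluster, 3074 or 39.9% passed. The study reports fewer, and the reason for the difference was not tested. With every deposited cluster summed, all 7 had more than 100 tags, as did 49.3% of all genes. Having a cluster at all was true of 36.2% of the protein-coding genes that RefSeq lists, and of 7 of the 10 members. No test was made on these counts, since the 10 genes were not a random draw.

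**Figure D1:**
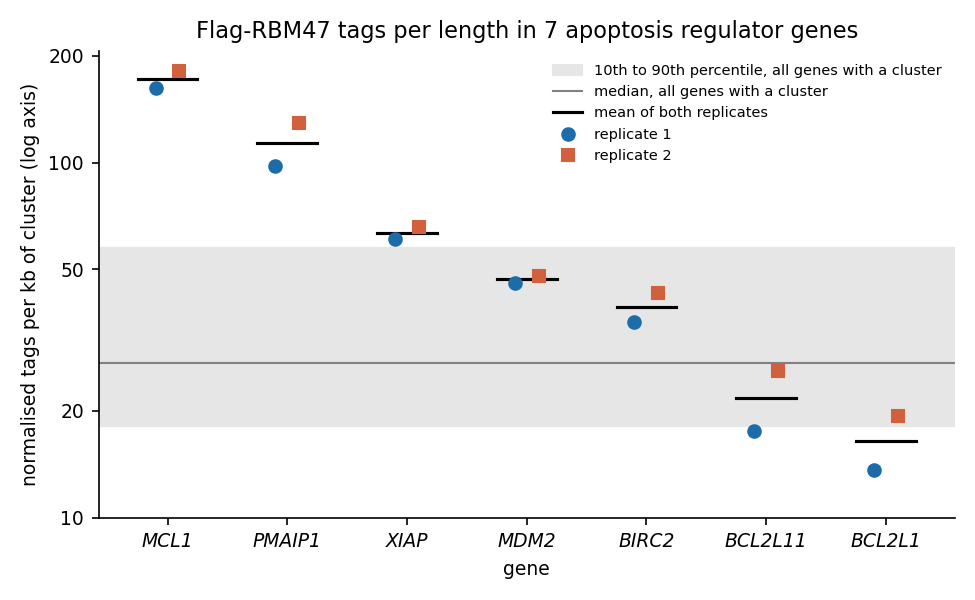
Normalised tags (per 1000000 tags of the replicate) per kb of cluster in the 7 genes with a deposited cluster, on a log axis, with a point for each of the 2 replicates and a bar at their mean. The grey line and band are the median and the 10th to 90th percentile of all genes with a cluster. MCL1 and PMAIP1 lie highest, and the replicate ranges overlap only between BCL2L11 and BCL2L1.

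Among the antiapoptotic genes, MCL1 was the most heavily tagged of all members. Its 11 clusters on chromosome 1 held 584 tags in replicate 1 and 2289 tags in replicate 2. Divided by library size and by the 3618 nt that the clusters covered, these were 162 and 181 normalised tags per kb, with a mean of 171 ± 13.9 (SD, n = 2). Both replicates were far above the median gene, which had 27.3 on the same scale, and above the 90th percentile of genes at 57.3. By tags per kb MCL1 ranked 87 of 7712 genes, within the top 1.13%, and without division by length it ranked 199.

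Nearly all of the MCL1 signal came from the 3' end of the transcript. The largest cluster (hg18 chr1:148814042-148815506, minus strand, labelled 3'UTR) held 318 tags in replicate 1 and 1210 in replicate 2, or 53.2% of the gene's tags. The next one upstream (chr1:148815511-148816603), which spans the end of the coding sequence and the start of the 3'UTR, held 188 and 836 tags. A shorter cluster near the end of the 3'UTR (chr1:148813660-148813889) held 44 and 124 tags. Together the 5 clusters with a 3'UTR label covered 99.7% of the 2943 nt between the first and the last of them, with no gap longer than 5 nt. Clusters thus ran almost without a break along this stretch of MCL1. Where tags peak within a cluster was not read. Clusters in the 3'UTR alone had 4.51 times the tag density of its coding clusters in replicate 1 and 5.49 times in replicate 2, while over all genes these ratios were 1.71 and 1.77.

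BCL2L1, which encodes BCL-XL, was at the other end of the range. Its 22 clusters held 31 tags in replicate 1 and 153 in replicate 2, or 13.7 and 19.3 normalised tags per kb (16.5 ± 3.99, SD, n = 2). That placed it at 6823 of 7712 genes by tags per kb, below the median gene in both replicates. Without division by length it ranked 2970, with 179 tags against a median of 96 per gene. Its largest cluster (chr20:29716823-29717048, minus strand, 3'UTR) had 1 tag in replicate 1 and 21 in replicate 2. Of the 22 clusters, 15 were labelled intron, each with 5 to 8 tags, and together they made up 48.6% of the gene's tags. This was the only member with clusters in which intron clusters held more tags than clusters labelled 3'UTR alone. None of these intron clusters reached 10 tags. With every label that includes the 3'UTR the replicates differed. Intron clusters led in replicate 1, 61.3% against 32.3%, and 3'UTR labels led in replicate 2, 51.0% against 45.1%. The ratio of 3'UTR to coding density was 0.707 in replicate 1 and 1.60 in replicate 2, from a coding cluster of 2 and 6 tags. BCL2, the founding member of the family, had no deposited cluster.

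The effector BAX had no deposited cluster, and neither had the BH3-only gene BMF. PMAIP1, which encodes the BH3-only protein NOXA, a partner of MCL1, was the second most tagged member per length. Its 8 clusters on chromosome 18 held 169 tags in replicate 1 and 782 in replicate 2, or 97.6 and 129 normalised tags per kb (113 ± 22.4, SD, n = 2). It ranked 185 of 7712 genes, within the top 2.40%, and 889 without division by length. The cluster at the end of its 3'UTR (hg18 chr18:55721844-55722518, plus strand) held 94 and 408 tags, 53.7% of the gene's tags. A second one upstream in the 3'UTR (chr18:55721364-55721637) held 26 and 115 tags. As in MCL1, the 6 clusters with a 3'UTR label left few gaps, covering 97.9% of 1545 nt. Tag density in the 3'UTR alone was 5.17 and 5.27 times that of the coding cluster in replicates 1 and 2. That coding cluster had only 2 and 9 tags, so the ratio rests on few tags below the line.

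BCL2L11, which encodes BIM, had a far lower level. Its 12 clusters held 20 tags in replicate 1 and 103 in replicate 2, or 17.5 and 25.9 normalised tags per kb (21.7 ± 5.89, SD, n = 2). It ranked 4430 of 7712 genes by the authors' total, and 6970 and 3755 by replicates 1 and 2 alone, so its place in the table was loosely fixed. The largest cluster (chr2:111639444-111639533, plus strand, 3'UTR) had 3 and 15 tags. Although 11 of the 12 clusters carried the 3'UTR label and held 90.2% of the tags, they covered 28.5% of the 3655 nt between the first and the last, with a gap of up to 768 nt. PMAIP1 and BCL2L11 thus had like 3'UTR shares and very different cover and levels. The ratio of 3'UTR to coding density in BCL2L11 was 1.81 in replicate 1 and 0.795 in replicate 2, from a coding cluster of 1 and 11 tags.

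XIAP, the caspase-blocking IAP, had the most clusters of the members, 46. They held 371 tags in replicate 1 and 1395 in replicate 2, or 61.0 and 65.7 normalised tags per kb (63.4 ± 3.30, SD, n = 2). The gene ranked 613 of 7712, within the top 7.95%, and 399 without division by length. Of its tags 89.0% lay in 24 clusters labelled 3'UTR, which covered 61.9% of a span of 6544 nt. The largest (hg18 chrX:122870887-122872102, plus strand) held 114 and 475 tags, 33.5% of the gene's tags. Further along, chrX:122873243-122873691 held 64 and 183 tags and chrX:122872427-122872736 held 26 and 85 tags. Tag density in the 3'UTR was 3.47 and 3.60 times that of the 7 coding clusters. The 3'UTR clusters were thus denser in tags than the coding ones in both replicates, with gaps of up to 507 nt between them. An additional 14 clusters were labelled intron and held 5.64% of the tags.

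**Figure D2:**
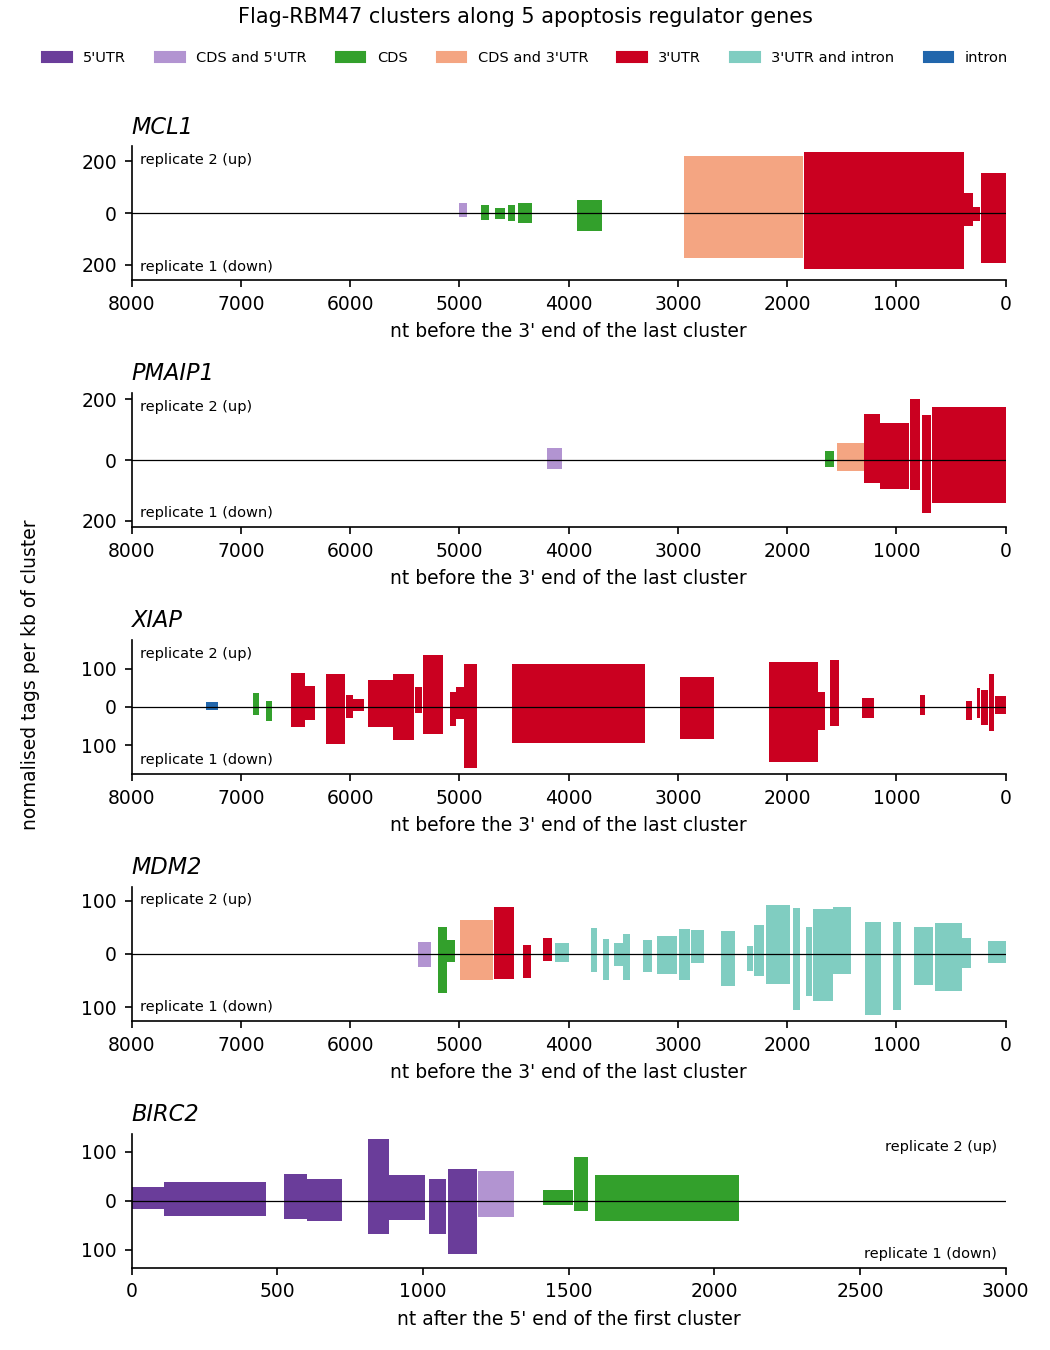
Clusters drawn to scale along MCL1, PMAIP1, XIAP, MDM2 and BIRC2, as distance in nt from the 3' end of the last cluster or, for BIRC2, from the 5' end of the first one. Height is normalised tags per kb of cluster, replicate 2 upward and replicate 1 downward, and colour is the location label. Panels stop short of the far end of XIAP, MDM2 and BIRC2, so clusters there are not drawn, the 3'UTR clusters of BIRC2 among them. Over whole genes, most tags lie in clusters with a 3'UTR label in the first 4. In BIRC2 most lie in the 5'UTR and first coding stretch.

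BIRC2, a ubiquitin ligase of the same IAP family, did not share this 3' pattern. Its 23 clusters on chromosome 11 held 97 tags in replicate 1 and 409 in replicate 2, or 35.6 and 42.9 normalised tags per kb (39.2 ± 5.21, SD, n = 2). It ranked 1589 of 7712 genes. The 8 clusters labelled 5'UTR held 46 tags in replicate 1 and 179 in replicate 2, which was 47.4% and 43.8% of the gene's tags in those replicates. By the authors' total the share was 43.2%, with a Wilson 95% interval of 38.9 to 47.6%. Over all clusters with a gene the share of 5'UTR clusters was 0.432%. Only 13.4% of the 3801 genes with more than 100 tags had any cluster labelled 5'UTR alone, and BIRC2 ranked 5 among them by its share, in each replicate as well. Its 3'UTR clusters held 11.4% of the tags.

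The BIRC2 signal at the 5' end ran on into the coding sequence. The largest cluster of the gene (hg18 chr11:101726114-101726607, plus strand, CDS) held 20 and 90 tags. The 12 clusters in the first 2084 nt, from the 5'UTR to the first coding clusters, held 74.2% of the gene's tags in replicate 1 and 77.8% in replicate 2. Per length, the difference between these regions was small. The ratio of 5'UTR to coding density was 1.37 in replicate 1 and 1.05 in replicate 2, against 0.947 and 0.868 over all genes. The ratio of 5'UTR to 3'UTR density was 1.13 and 1.05, against 0.553 and 0.490 over all genes. The BIRC2 clusters labelled 5'UTR alone covered 1021 nt and those labelled 3'UTR alone 275 nt.

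The gene next to BIRC2 is its paralogue BIRC3 (cIAP2), which is not a member but carries the same label pattern at a higher level. Its 21 clusters held 401 and 1644 tags, and 60.1% and 61.9% of these in the 2 replicates lay in 7 clusters labelled 5'UTR. BIRC3 ranked 2 among the 3801 genes by that share and 1 by its 1258 tags in 5'UTR clusters. The largest of them (chr11:101699684-101700323) held 78 and 282 tags. The clusters of BIRC3 and BIRC2 were separated by 9262 nt on the same strand. Whether the location labels fit the transcripts made in these cells was not tested.

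MDM2, the ubiquitin ligase of the damage response, had 35 clusters with 192 tags in replicate 1 and 704 in replicate 2. These were 45.7 and 48.0 normalised tags per kb (46.9 ± 1.61, SD, n = 2), and the gene ranked 1139 of 7712. No cluster of MDM2 reached 100 tags. Both of its largest held 81 tags by the authors' total: one crossing from the coding sequence into the 3'UTR (hg18 chr12:67519705-67520006, plus strand) with 15 and 66 tags, and one further along (chr12:67522505-67522719) with 12 and 69 tags. The signal of MDM2 was spread over many clusters, from 5 to 81 tags with a median of 17.

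Most of the MDM2 tags lay in clusters labelled both 3'UTR and intron, that is, where one annotated transcript has a 3'UTR and another an intron. These 23 clusters held 75.5% of its tags in replicate 1 and 70.0% in replicate 2, while clusters labelled 3'UTR alone held 9.32% by the authors' total. They lay downstream of the clusters labelled 3'UTR alone. Their tag density was 1.53 and 1.48 times that of the coding clusters in replicates 1 and 2, against 1.33 and 1.34 over all genes. For clusters labelled 3'UTR alone these ratios were 1.12 and 1.73, against 1.71 and 1.77 over all genes. All 27 clusters with any 3'UTR label, the one that begins in the coding sequence included, covered 67.5% of a span of 4991 nt. Of the 3801 genes with more than 100 tags, 15.3% had clusters with this double label, and MDM2 ranked 68 by their share. MDM4, the relative and binding partner of MDM2, had 70.8% of its 750 tags under the same label and ranked 70.

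**Figure D3:**
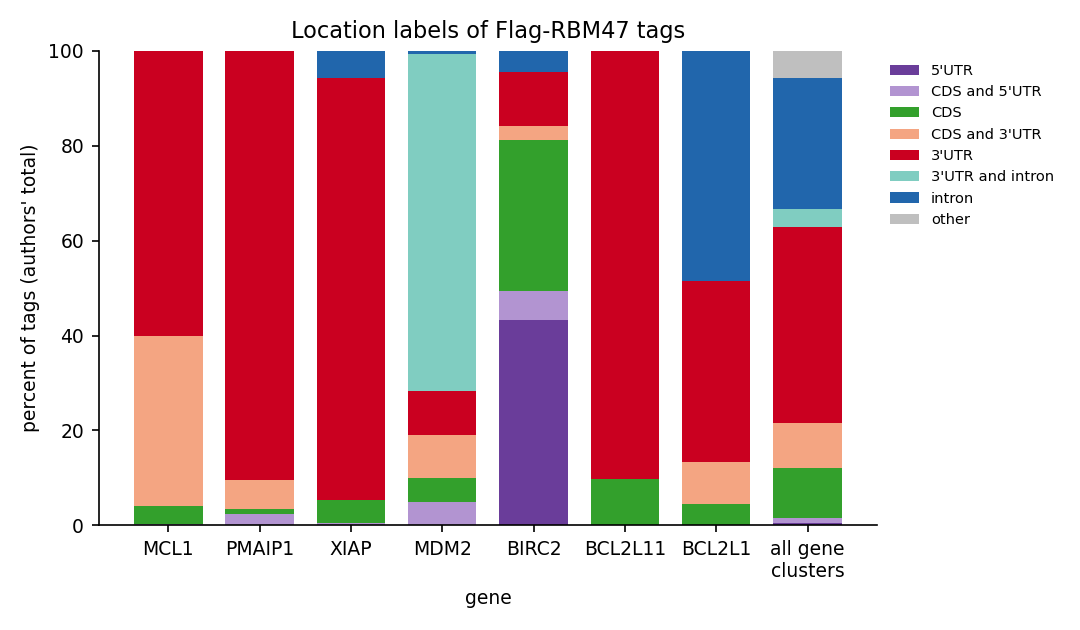
Percent of each gene's tags, by the authors' total, in clusters of each location label, for the 7 members with clusters and for all clusters with a gene. The 3'UTR labels fill most of MCL1, PMAIP1, XIAP and BCL2L11, the label shared by 3'UTR and intron fills 71.0% of MDM2, and 5'UTR fills 43.2% of BIRC2.

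Taking the members together, clusters labelled 3'UTR alone held 61.3% of the tags in replicate 1 and 61.4% in replicate 2. By the authors' total the share was 61.5% (Wilson 95% interval 60.3 to 62.6%), beside 41.3% over all clusters with a gene. With every label that includes the 3'UTR the shares were 86.6% and 54.9%. Clusters labelled intron alone held 2.95% of the member tags and 27.5% of all tags in genes. With every label that includes an intron, the double-labelled MDM2 clusters among them, these shares were 11.7% and 31.4%. MCL1 and XIAP supply most of the tags in these sums, so the shares describe mainly them. Gene by gene, the median share labelled 3'UTR alone was 54.3% over the 3801 genes with more than 100 tags. MCL1 had 60.2%, XIAP 89.0%, BCL2L11 90.2% and PMAIP1 90.4%. Below that median were BCL2L1 at 38.0%, BIRC2 at 11.4% and MDM2 at 9.32%. By clusters rather than tags, 35.7% of the 157 member clusters were labelled 3'UTR alone. The intervals cover counting error only, and clusters of a gene are not independent, so no test was made.

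Ordered by normalised tags per kb, the members ran MCL1, PMAIP1, XIAP, MDM2, BIRC2, BCL2L11 and BCL2L1. The ranges of the 2 replicates did not overlap between neighbours in this order, with the exception of BCL2L11 and BCL2L1. MCL1 exceeded PMAIP1 1.66-fold in replicate 1 and 1.40-fold in replicate 2, and MDM2 exceeded BIRC2 1.29-fold and 1.12-fold. These steps were not tested. The span from first to last was wide, since MCL1 lay at 171 and BCL2L1 at 16.5 normalised tags per kb.

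Whether the replicates gave the members the same weight was asked with a two-sided exact binomial test of each split of tags, against the 22.3% of all tags that came from replicate 1. It compares these libraries and not conditions. None of the 157 member clusters passed at an adjusted p of 0.05, and 6 had an unadjusted p below it. With a beta-binomial test no member cluster passed either, and 0 had an unadjusted p below 0.05. Over all 233546 clusters 0.0111% passed the binomial test. A listed cluster has a tag in each replicate, which bounds how low the replicate 1 share of a small cluster can be. The BCL2L1 cluster with 1 and 21 tags had an exact binomial p of 0.0420 before adjustment. Small clusters could therefore hardly pass in that direction, and the count of passing clusters says little about them. The cluster with the lowest p was the MCL1 cluster at the end of the coding sequence, with 18.4% of its tags from replicate 1 (exact p = 0.00263, adjusted p = 1).

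Summed over each gene, 1 of the 7 members passed, against 1.70% of all 7712 genes, or 0.934% counting only genes with a lower replicate 1 share. This was PMAIP1, where 17.8% of tags came from replicate 1 (Wilson 95% interval 15.5 to 20.3%, exact binomial p = 0.000789, Benjamini-Hochberg adjusted p = 0.0469). The test uses the replicate columns, and in a PMAIP1 cluster (chr18:55721218-55721365) these, 11 and 77 tags, exceed the authors' total of 75. The PMAIP1 call was lost with a beta-binomial test (adjusted p = 1) and when the share expected was taken from clusters of at least 100 tags (adjusted p = 0.225), and at the median ratio over genes it held (adjusted p = 0.00859). MCL1 had a share of 20.3% (exact binomial p = 0.0128, adjusted p = 0.254). All 7 shares lay below that of the whole table, between 16.3% for BCL2L11 and 21.4% for MDM2, and 47.7% of all genes with more than 100 tags were below it too.

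The other genes of the pathway were read from 8 lists by role, 37 genes in all. Of these 21 had a cluster and 10 had more than 100 tags. Values for them are tags per kb of cluster by the authors' total, on which MCL1 had 794, XIAP 289 and the median gene 116.

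Close relatives of the BCL2 family gave little signal. Of 3 other antiapoptotic genes only BCL2L2, which encodes BCL-W, had a cluster, with 4 and 18 tags (83.7 tags per kb). The effectors BAK1 and BOK had none. Of 5 other BH3-only genes, BID alone had a cluster, with 1 and 5 tags (85.7 tags per kb).

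More genes of the other lists had clusters. Of 5 other IAPs 4 had clusters, and BIRC3 was highest at 413 tags per kb. NAIP had 268 tags per kb from a single cluster of 11 tags, in a gene with near-identical copies, and this value is uncertain. BIRC6, a very large IAP, had 125 tags per kb with 2751 tags in 224 clusters. Among the IAP antagonists, DIABLO and HTRA2 had 1 cluster each with 5 and 7 tags. Of 7 genes for caspases and the apoptosome 4 had clusters and 3 had more than 100 tags. Cytochrome c (CYCS), whose processed copies in the genome make its count uncertain, had 225 tags per kb. APAF1, which cytochrome c activates, had 164 tags per kb. CASP6 had 157 from a single cluster of 8 tags.

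In the death receptor list 6 of 9 genes had clusters. TNFRSF10B, a receptor for the ligand TRAIL, had 196 tags per kb (123 and 440 tags). FAS had 120 from 8 and 18 tags, and TNFRSF1A had 117 from 3 and 12 tags, so both values rest on few tags. All 3 genes listed around MDM2 had clusters, and each gene had more than 100 tags summed over its clusters. CDKN1A, the cell cycle inhibitor p21, had 210 tags per kb, MDM4 had 141, and USP7, a deubiquitinase of MDM2, had 118.

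**Figure D4:**
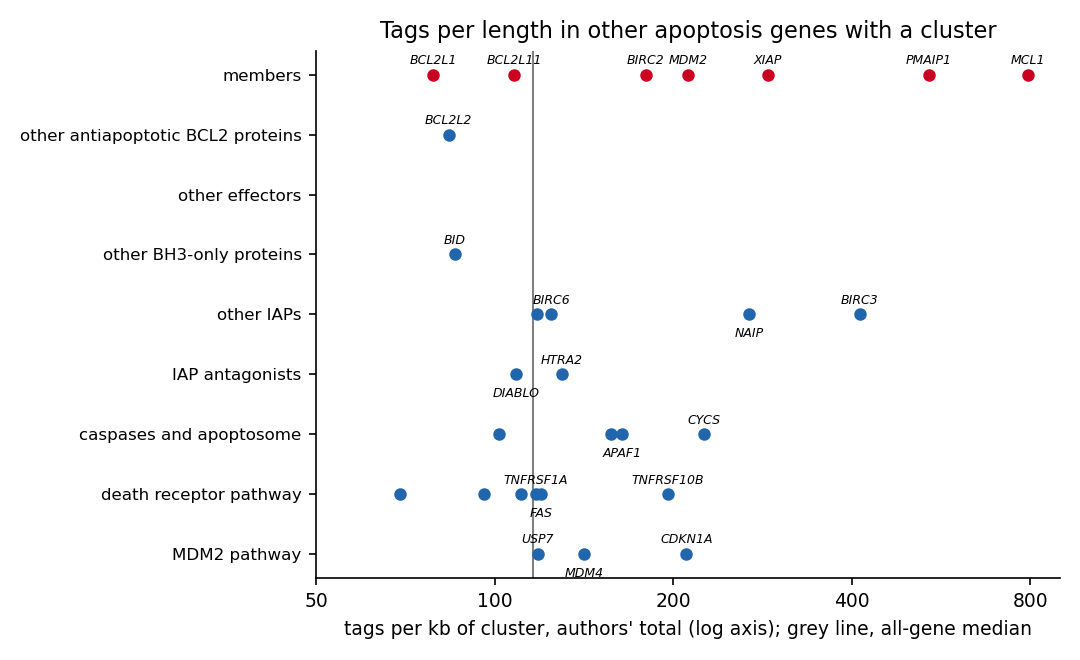
Tags per kb of cluster by the authors' total, on a log axis, for the members and the genes with a cluster in each of the 8 lists. The top genes are named, with the exception of CASP6, and a grey line marks the median of all genes, 116. MCL1 and PMAIP1 lie to the right of every gene in the lists, and BIRC3 at 413 is the nearest.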

How the data were processed

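HITS-CLIP was measured in 2 replicates of MDA231-BrM2a cells. The authors collapsed mapped reads to unique tags and grouped overlapping tags into clusters. The authors deposited counts, the number of tags in each cluster per replicate and in total, with the authors' location label and gene. Per the labels' processing notes the aligner was Novoalign and the build hg18; the version was not given in the sources used here. Coordinates are printed as deposited, and whether they count from 0 or 1 is not known. The largest cluster overlapped the GRCh37 gene in 0 of 7 members, so no reference coordinates or sequence were used. In 25 of 157 member clusters the replicate columns summed to more than the authors' total, by 51 tags in all, and the reason is not given in the sources used here.

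Members and gene lists were chosen with earlier results of these data known. All clusters of a gene were summed. Levels are normalised tags, per 1000000 tags of a replicate's column, and levels of different genes are divided by summed cluster length in kb (end minus start). Ranks use the authors' total over length. Each split of tags between replicates was tested with a two-sided exact binomial test. Benjamini-Hochberg adjustment ran over all 233546 clusters or 7712 genes. The test was first run on simulated splits with binomial spread only, which cannot show the effect of spread beyond counting error. Whether the replicates were separate cultures is not stated, so p-values may measure technical spread. The text names the members, each member's largest cluster and those of at least 100 tags, and the 3 genes with the most tags per kb in each list. Some genes of these lists are not reported here and were left out of their counts. Alternatives were a minimum of 10 or 30 tags per cluster, other tag columns, lengths and location rules, clusters closer than 50 nt merged, another expected share, a beta-binomial test, and leaving out each replicate. Python 3.11.15, numpy 2.4.6, pandas 2.3.3, scipy 1.17.1 and matplotlib 3.10.9 were used.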

Additional observations from a re-analysis of the deposited data

How the results depend on the processing

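The summed member level of 1569 normalised tags was 1885 with clusters of at least 10 tags and 2376 with at least 30, where both the members and the table lose their small clusters, and 1465 to 1672 with either replicate alone. The median member rank per kb, 1139 of 7712 genes, was 1370 of 5600 genes at 10 tags, 529 of 2993 genes at 30 tags with 5 members left, 932 without division by length, and 1137 to 1368 with either replicate alone. The share of member tags in clusters labelled 3'UTR alone, 61.5%, was 63.3% at 10 tags, 68.5% at 30 tags, 86.6% with every label that includes the 3'UTR and 35.7% as a share of clusters, and 61.3 to 61.4% with either replicate alone. The number of members over 100 tags, 7, was 5 with clusters of at least 10 or 30 tags, 4 with replicate 1 alone and 7 with replicate 2 alone, and the cause, a smaller library, is in the construction of the count. The number of member genes with a called split, 1, was 0 with the beta-binomial test, 2 at the median ratio over genes (MCL1 and PMAIP1), and 0 with the share expected from clusters of at least 100 tags, a setting chosen after seeing the data; the cause was not tested. Without division by length BCL2L1 moved from the lower to the upper part of the table (rank 6823 to 2970), and at 10 tags its intron share fell from 48.6% to 0%. No paired analysis was possible because the 2 replicates form 1 group, and a split between replicates cannot be computed with 1 of them left out. The small replicate 1 library, with a median of 2 tags per member cluster, limits the precision of single clusters, and the lack of a control library leaves background unmeasured.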

Other observations

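Clusters with no gene name were sought within 10000 nt of the members' clusters on the same strand. MCL1 had 1 such cluster, 14 nt downstream of its last named cluster, with 2 tags in replicate 1 and 4 in replicate 2. MDM2 had 3, the nearest 1125 nt downstream, with 5 and 14 tags in all. The other 5 members with clusters had none.

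CFLAR, which encodes FLIP, an inhibitor of death receptor signalling, and was picked out after its values were seen, shared the double 3'UTR and intron label of MDM2 and MDM4. Clusters with that label held 69.7% of its tags in replicate 1 and 67.1% in replicate 2, and it ranked 78 by this share among the 3801 genes with more than 100 tags.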
